A study of Mus musculus with 12 samples.

Results

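Mitochondrial ribosomal protein genes are nuclear genes for the proteins of the ribosome that works inside mitochondria. They were taken as all gene symbols made of Mrpl or Mrps and a number, with a mean of at least 1 log2 CPM over 12 libraries of regenerating mouse muscle. CPM is the usual unit of a gene's reads divided by a scaled library size, and log2 CPM is its base-2 logarithm. Of 28116 gene symbols 82 matched this form, and 77 of them reached the mean and are the members described here. The large subunit of the ribosome has 50 of them and the small subunit has 26, counting Mrps18a and Mrps30 with the large subunit, where their proteins sit in spite of the names. The remaining member, Mrps36, carries the family name, but its protein is known as a part of the 2-oxoglutarate dehydrogenase complex of the citric acid cycle.

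The muscle was tibialis anterior of mdx mice (C57BL/10ScSn-Dmdmdx/J, 4 months old), which lack dystrophin in their muscle fibres. Each muscle received cardiotoxin, which kills fibres and starts regeneration, together with an inhibitor against the microRNA miR-106b (anti-miR-106b) or an inhibitor of scrambled sequence (scrambled). Muscles were taken 3 or 7 days after the injection, which makes 4 groups (day 3 with anti-miR-106b, day 3 with scrambled, day 7 with anti-miR-106b, day 7 with scrambled) of 3 animals each, and the study asked how inhibition of miR-106b changes expression in the regenerating muscle. All 4 groups carry the mdx mutation and all were injured, so none shows intact or dystrophin-sufficient muscle. The later time appears once as 5 days in the series text and as 7 in every label. Whether both legs of an animal were used is not given in the sources used here. The level of miR-106b itself was not analysed here.

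The mitochondrial ribosome makes only the handful of proteins that mitochondrial DNA encodes, all of them subunits of the respiratory chain and ATP synthase. Its ribosomal RNAs come from mitochondrial DNA, whereas every one of its proteins is encoded in the nucleus, made in the cytosol and imported. It descends from a bacterial ribosome, and many of its proteins have a counterpart in bacteria while others exist only in mitochondria. Muscle fibres are rich in mitochondria, and their respiratory capacity is rebuilt when new fibres mature after injury.

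The start regions of the genes are shown first, because many members moved together and because promoters of genes for mitochondrial proteins are known for sites of the factors NRF1, GABP (an ETS factor) and YY1. RefSeq (GRCm38.p6) gave a 300-base window around the start site, most of it upstream, for 68 of the 77 members. The windows were searched on both strands for GCGCANGCG (NRF1), CCGGAAG (ETS and GABP), AAGATGGCG (YY1), CACGTG (the E-box) and TCAAGGTCA (estrogen-related receptors), and matches of different motifs may overlap. Below are Mrpl42, the member with the lowest fold change at day 3, Mrpl52, the one that went the other way, Mrpl12, the member with the highest level per length, and Mrps11, which starts head to head with another member, Mrpl46. Capitals mark the motif match on either strand.
Mrpl42 (chr10:95501900-95502199, minus strand, YY1 match in capitals): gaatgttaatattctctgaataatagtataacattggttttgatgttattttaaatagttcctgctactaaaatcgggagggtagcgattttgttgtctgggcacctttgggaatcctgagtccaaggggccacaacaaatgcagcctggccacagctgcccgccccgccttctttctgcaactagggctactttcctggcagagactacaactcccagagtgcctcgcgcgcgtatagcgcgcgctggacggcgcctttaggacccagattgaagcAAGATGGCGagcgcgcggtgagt
Mrpl52 (chr14:54426659-54426958, plus strand, both ETS matches in capitals): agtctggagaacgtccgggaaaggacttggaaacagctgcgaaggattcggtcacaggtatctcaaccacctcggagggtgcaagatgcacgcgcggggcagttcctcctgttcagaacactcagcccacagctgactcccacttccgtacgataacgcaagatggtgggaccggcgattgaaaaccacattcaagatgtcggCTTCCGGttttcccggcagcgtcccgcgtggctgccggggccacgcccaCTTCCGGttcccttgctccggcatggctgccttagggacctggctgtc
Mrpl12 (chr11:120484387-120484686, plus strand, NRF1 match in capitals): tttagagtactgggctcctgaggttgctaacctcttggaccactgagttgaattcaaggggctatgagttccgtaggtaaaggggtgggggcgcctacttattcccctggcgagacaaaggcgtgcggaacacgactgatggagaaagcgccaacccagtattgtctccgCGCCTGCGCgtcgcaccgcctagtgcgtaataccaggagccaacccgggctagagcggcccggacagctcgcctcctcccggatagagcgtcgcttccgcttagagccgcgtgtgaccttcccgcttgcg
Mrps11 (chr7:78782881-78783180, plus strand, YY1 match in capitals): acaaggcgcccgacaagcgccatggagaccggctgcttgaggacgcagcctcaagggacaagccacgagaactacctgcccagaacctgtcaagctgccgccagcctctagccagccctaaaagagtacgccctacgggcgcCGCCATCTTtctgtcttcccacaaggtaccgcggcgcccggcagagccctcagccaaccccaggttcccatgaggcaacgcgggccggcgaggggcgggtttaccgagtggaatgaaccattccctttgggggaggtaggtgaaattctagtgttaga

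An NRF1 match stood in 16 of the 68 member windows (23.5%), against 13.3% of the 10645 tested genes with a window and 6.47% of all 27025 windows of that length. The ETS motif stood in 24 member windows (35.3%), against 17.6% of tested genes and 9.12% of all windows. The YY1 motif stood in 8 (11.8%), against 3.13% and 1.5%. The E-box stood in 5 (7.35%), against 10.2% of tested genes and 7.24% of all windows. None of the member windows held TCAAGGTCA, which 0.263% of tested genes and 0.407% of all windows held. These are matches of letters in a window and not measured binding sites. The median log2 fold change at day 3 (described further on) was -0.17 in members with an NRF1 match and -0.11 in those without. It was -0.07 and -0.15 for ETS, and -0.15 and -0.12 for YY1. For day 7 against day 3 with anti-miR-106b the medians were 0.59 and 0.66 (NRF1), 0.56 and 0.66 (ETS), and 0.78 and 0.59 (YY1). With scrambled they were 0.46 and 0.51, 0.45 and 0.51, and 0.53 and 0.46. These differences between members with and without a match were not tested.

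GENCODE M21 on GRCm38 gave each member 1 protein-coding gene, spread over 17 chromosomes, with 11 members on chromosome 11 and 8 on chromosome 17. For 33 members another protein-coding gene starts on the opposite strand within 1000 bases of their own start, such as Sars2, the mitochondrial seryl-tRNA synthetase gene, beside Mrps12. Exon bases of 32 members are shared with another annotated gene, and 9 members share over 20% of them. The largest share is that of Mrps34, at 77.8%. Whether reads were counted by strand is not given in the sources used here, so reads of such a member and of its neighbour cannot be told apart. Mrpl46 and Mrps11 overlap in this way with each other.

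Levels were compared between members per length, as mean log2 CPM per kilobase of exon over the 12 libraries. The median member had 4.18, the median of the large subunit genes 4.42 and that of the small subunit genes 3.18. Mrpl12, a protein of the stalk that binds translation factors, was highest at 6.72 (105.5 CPM per kilobase), and Mrps35, a small subunit protein without bacterial counterpart, lowest at 1.75 (3.37 CPM per kilobase). The genes for proteins that occur in 1 ribosome thus differed 31.3-fold per length in this whole-tissue RNA. The length pools the exons of all annotated transcripts of a gene, and was 1532 bases for Mrpl12 and 8631 for Mrps35. Much of the gap comes from this divisor, since before it their means were 7.34 and 4.86 log2 CPM. The member with the lowest mean was Mrps6, with 3.49 log2 CPM and 4811 reads in all libraries together, well above the rule's threshold of 1 log2 CPM. Nearest below the threshold was Mrpl23-ps1, a pseudogene by its symbol, with 0.28 log2 CPM. The other matching symbols below the threshold were Mrps36-ps1, Mrpl48-ps, Mrps36-ps2 and Mrpl53, with means of -1.08, -1.97, -4.78 and -5.46 log2 CPM. Mrpl53, whose symbol carries no pseudogene mark, had 16 reads in all libraries together. All 77 members passed the filter for testing, 1 CPM in at least 3 libraries, together with 14063 genes in all.

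The first comparison was anti-miR-106b against scrambled at day 3. With anti-miR-106b 63 of 77 members had a lower mean, and by the test 20 fell, 1 rose and 56 did not pass (limma, adjusted p below 0.05); with total-count scaling, described below, this direction flips for many of them. The background in the same comparison was 19.4% of all tested genes lower and 16.3% higher, against 26.0% and 1.30% of members. The median log2 fold change of the members was -0.12, that of all tested genes 0.01, and 64 of 77 members lay below the median of all genes. The fold changes were small and spanned -0.54 to 0.31. Libraries of both groups did not overlap for 41 members that were lower with anti-miR-106b and for 4 that were higher, against 29.3% and 31.2% of all tested genes. Leaving out the scrambled day 3 library 2 left 9 members lower, and leaving out library 3 of either day 3 group left 13.

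**Figure D1:**
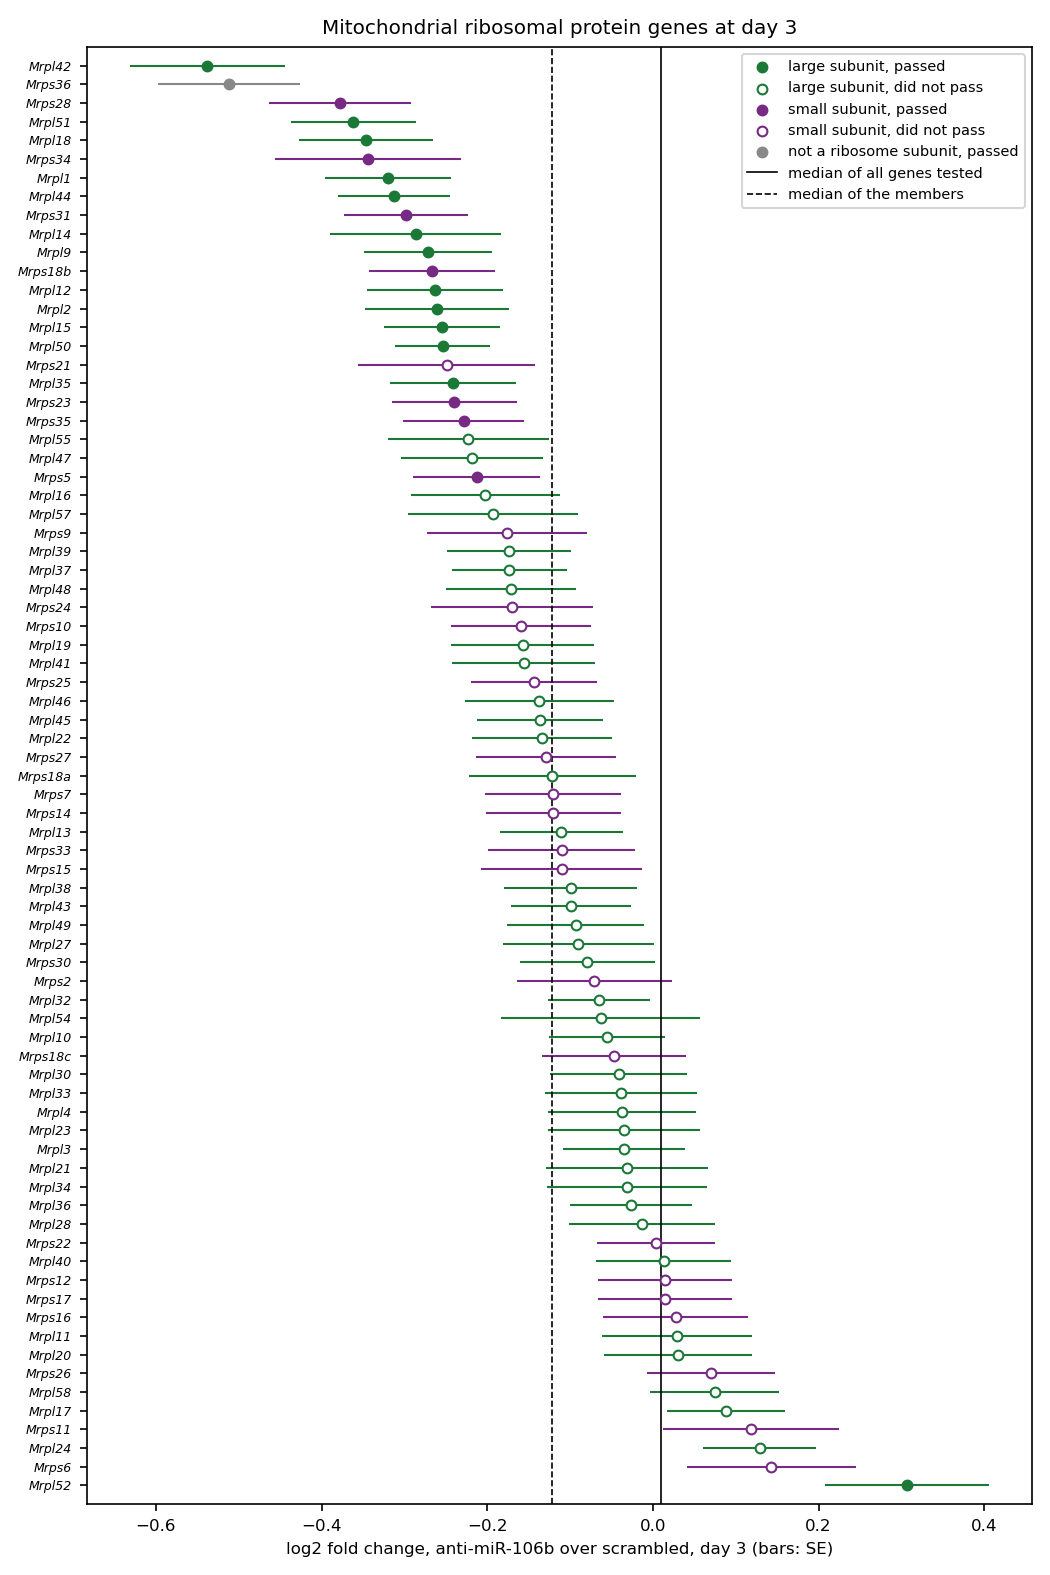
Log2 fold change of each of the 77 members at day 3, anti-miR-106b over scrambled, with bars for the standard error and filled points for members that passed the test (limma, adjusted p below 0.05). The points run from -0.54 (Mrpl42) to 0.31 (Mrpl52), and the dashed line at the members' median of -0.12 stands left of the solid line at the median of all tested genes, 0.01.

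These directions depend on how libraries are scaled. The deposited values use library sizes multiplied by a factor for each library, with group means of 1.28 in anti-miR-106b day 3, 1.12 in scrambled day 3, 0.828 in anti-miR-106b day 7 and 0.845 in scrambled day 7 libraries. With plain total-count scaling the median of all tested genes at day 3 moved to 0.20 and that of the members to 0.07, with 15 members higher and 4 lower. The 4 members that passed as lower under both scalings were Mrpl42, Mrps36, Mrps28 and Mrpl51, and the 1 that passed as higher under both was Mrpl52. As a share of all reads the members together took 0.375% ± 0.001 in anti-miR-106b day 3 libraries and 0.365% ± 0.003 in scrambled day 3 libraries (SD, n = 3 each), so with this measure anti-miR-106b libraries were the higher ones. All reads include the mitochondrially encoded ones, which made up 4.81% and 7.64% of them in these groups. Total-count scaling without those reads gave a members' median of 0.025, with 7 members higher and 6 lower.

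Mrpl42, a large subunit protein without bacterial counterpart, had 6.78, 6.84 and 6.65 log2 CPM in anti-miR-106b day 3 libraries, against 7.20, 7.41 and 7.26 in scrambled day 3 libraries. All anti-miR-106b libraries were below all scrambled ones, and the log2 fold change was -0.54 ± 0.09 (SE, limma, adjusted p = 0.000798). Its gene lies at chr10:95480805-95501940, and with total-count scaling the fold change was -0.35. Mrps36, the citric acid cycle protein with the family name, had 3.80, 3.85 and 3.71 log2 CPM with anti-miR-106b, against 4.19, 4.37 and 4.34 with scrambled. Its groups were likewise separate, with a log2 fold change of -0.51 ± 0.09 (limma, adjusted p = 0.000622).

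Mrps28, a small subunit protein, had 5.09, 5.18 and 5.07 log2 CPM with anti-miR-106b and 5.39, 5.59 and 5.50 with scrambled at day 3. The groups did not overlap, and the log2 fold change was -0.38 ± 0.09 (limma, adjusted p = 0.00412). Mrpl51, a mitochondria-specific protein of the large subunit, had 6.70, 6.68 and 6.72 log2 CPM with anti-miR-106b and 7.03, 7.10 and 7.06 with scrambled. Its values were tight in both groups, and its log2 fold change was -0.36 ± 0.08 (limma, adjusted p = 0.00253). Of the other members that fell, Mrpl1, Mrpl44, Mrps34, Mrps18b, Mrpl12, Mrps35 and Mrps5 had log2 fold changes of -0.32, -0.31, -0.34, -0.27, -0.26, -0.23 and -0.21. Mrps34 and Mrps18b are the 2 members among the 20 that share over 20% of their exon bases with another gene.

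Mrpl52, another large subunit protein without bacterial counterpart, was the 1 member that rose at day 3. It had 5.57, 5.62 and 5.58 log2 CPM with anti-miR-106b, against 5.24, 5.30 and 5.31 with scrambled. The groups did not overlap, and the log2 fold change was 0.31 ± 0.10 (limma, adjusted p = 0.0274). This call was lost when any of the 6 day 3 libraries was left out. The other 3 members whose anti-miR-106b libraries were all higher were Mrpl58, Mrps6 and Mrpl17 (the last named after its values were seen), and none of them passed the test.

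**Figure D2:**
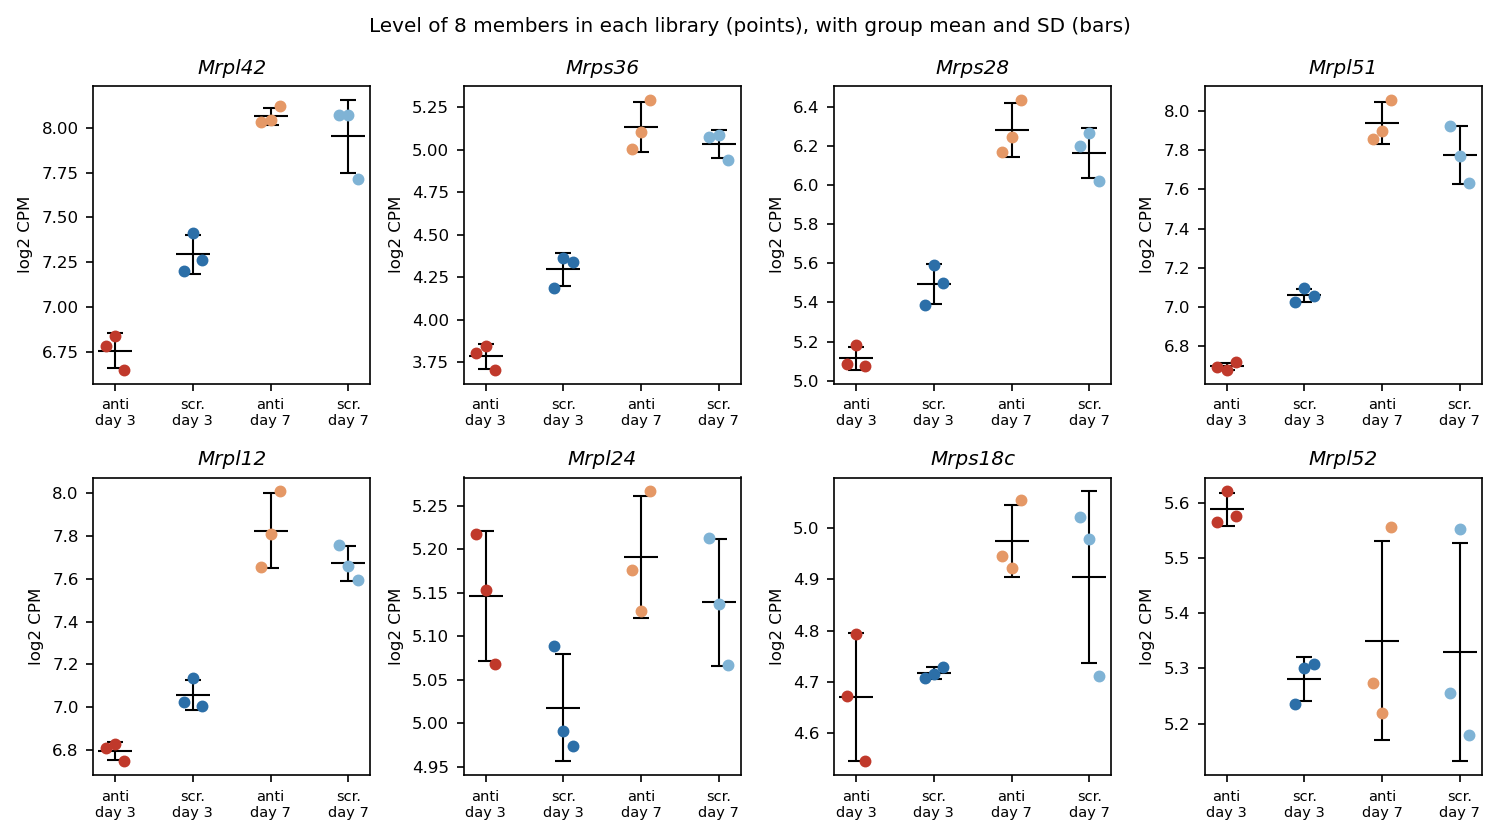
Level of 8 members in log2 CPM in each library (points), with the mean and SD of each group of 3 (bars), for anti-miR-106b (anti) and scrambled (scr.) at day 3 and day 7. For Mrpl42, Mrps36, Mrps28, Mrpl51 and Mrpl12 the anti-miR-106b day 3 libraries are lowest and the day 7 libraries highest, while Mrpl24 stays between 4.97 and 5.27 and Mrpl52 is highest in anti-miR-106b day 3 libraries.

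By place in the ribosome the counts at day 3 are given beside the 19.4% of all tested genes that were lower, and differences between places were not tested. The large subunit had 12 members lower of 50 and a median of -0.12 on the log2 scale, and the small subunit 7 lower of 26 with a median of -0.13. Members with a bacterial counterpart had 10 lower of 46 and a median of -0.10, and mitochondria-specific members 9 lower of 30 and a median of -0.14. In the factor-binding stalk Mrpl12 fell, while Mrpl10 and Mrpl11, which hold the stalk to the ribosome, had fold changes of -0.06 and 0.03 that did not pass. Mrpl12 had 6.81, 6.83 and 6.75 log2 CPM with anti-miR-106b and 7.02, 7.14 and 7.01 with scrambled, with separate groups and an adjusted p of 0.023 (limma). Mrpl1, the protein of the mobile stalk where transfer RNA leaves, had 4.49, 4.52 and 4.58 log2 CPM with anti-miR-106b and 4.83, 4.85 and 4.86 with scrambled, also without overlap (limma, adjusted p = 0.00544).

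Around the exit tunnel, through which the new protein leaves the large subunit, 1 of 8 members fell. That was Mrpl44, whose human counterpart is mutated in an inherited cardiomyopathy, with 4.73, 4.68 and 4.68 log2 CPM in anti-miR-106b day 3 libraries and 5.01, 5.06 and 4.96 in scrambled day 3 libraries. Mrpl45, which ties the ribosome to the inner membrane, had a fold change of -0.14, and Mrpl22, Mrpl23 and Mrpl24 of the tunnel -0.13, -0.04 and 0.13 (adjusted p = 0.179, 0.234, 0.791 and 0.156 with limma). The central protuberance, where both subunits meet at the top, had 1 member lower of 7. Its Mrpl38 and Mrpl58, a peptidyl-tRNA hydrolase that frees stalled ribosomes, had fold changes of -0.10 and 0.07, neither of which passed.

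In the small subunit, 1 of 5 members along the path of the messenger RNA fell. Mrps5 at the entry of the messenger RNA had 4.75, 4.83 and 4.60 log2 CPM with anti-miR-106b and 4.93, 4.96 and 4.93 with scrambled at day 3, with a log2 fold change of -0.21 ± 0.08 (limma, adjusted p = 0.0445). Mrps12, the protein at the decoding centre, had a fold change of 0.01 and Mrps7 one of -0.12, and neither passed. The 3 related proteins Mrps18a, Mrps18b and Mrps18c had fold changes of -0.12, -0.27 and -0.05, of which the one of Mrps18b passed. Mrps2, Mrps16, Mrps22 and Mrps27, the last a protein with pentatricopeptide repeats that bind RNA, lay between -0.13 and 0.03 without passing, as did the large subunit proteins Mrpl3, Mrpl34, Mrpl41 and Mrps30 between -0.16 and -0.03.

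Across the 77 members the log2 fold change at day 3 had a Pearson r of -0.24 with mean log2 CPM, -0.17 with mean log2 CPM per kilobase and 0.01 with exon length (Spearman rho -0.16, -0.14 and 0.02). These members were measured in the same libraries and are not independent, so no p is given.

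At day 7 no member passed between anti-miR-106b and scrambled in either direction (limma), and the same count of 0 came from voom weights on the reads. The background was 0.00711% of all tested genes higher and 0.0569% lower. At an unadjusted p below 0.05, 5 members were higher and 0 lower, and the lowest adjusted p was 0.363. The members' median log2 fold change was 0.06 with a range of -0.15 to 0.22. That median was -0.0019 (38 of 77 members above 0) without anti-miR-106b day 7 library 3, and -0.0058 (37 above 0) without scrambled day 7 library 3. The libraries of 4 members (Mrpl23, and Mrpl15, Mrps31 and Mrpl32, named after their values were seen) did not overlap, all of them higher and 0 lower, against 5.18% and 5.69% of tested genes. Mrpl42 had 8.04, 8.04 and 8.12 log2 CPM in anti-miR-106b day 7 libraries and 8.07, 8.07 and 7.72 in scrambled day 7 libraries, which overlapped. Mrpl51 had 7.86, 7.90 and 8.06 with anti-miR-106b and 7.92, 7.77 and 7.63 with scrambled, which overlapped too.

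Members varied more within groups at day 7. The fit shares its estimate of spread over all 4 groups, so the SE of a member is the same on both days. The median SD of a member within a group was 0.13 log2 CPM in anti-miR-106b day 7 and 0.12 in scrambled day 7 libraries, against 0.06 in each day 3 group. In summed CPM of all members, anti-miR-106b day 7 libraries had 4558, 4757 and 5343, and scrambled day 7 libraries 4925, 4822 and 4255. The members' fold changes at day 3 and at day 7, which share no library, had a Pearson r of -0.04 across the 77 members, and 23 members had the same sign on both days.

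The change of the anti-miR-106b effect between the days was tested as an interaction. It passed as higher at day 7 than at day 3 for 14 members and as lower for 0 (limma, and 15 and 0 with voom weights), against 13.2% and 9.07% of all tested genes. At an unadjusted p below 0.05 the counts were 21 and 0. The largest values were 0.65 ± 0.13 for Mrpl42, 0.61 ± 0.12 for Mrps36, 0.52 ± 0.11 for Mrpl51 and 0.50 ± 0.12 for Mrps28 (limma, adjusted p = 0.00478, 0.00416, 0.00484 and 0.0111). Of the 14, 13 had fallen at day 3, and the same day 3 libraries enter both tests. Without scrambled day 3 library 2 the count was 7 and without anti-miR-106b day 3 library 2 it was 8. With total-count scaling it was 4 higher and 5 lower.

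Day 7 against day 3 was compared within each arm. In the anti-miR-106b arm 75 of 77 members rose and 1 fell, and in the scrambled arm 72 rose and 0 fell (limma; also 0 lower at an unadjusted p below 0.05 and with voom weights). Of all tested genes, 37.9% were higher and 40.8% lower in the anti-miR-106b arm, and 32.9% higher and 35.3% lower in the scrambled arm. The median log2 fold change of the members was 0.63 in the anti-miR-106b arm and 0.50 in the scrambled arm, against medians of -0.02 and 0.00 for all genes. Libraries of both days did not overlap for 75 members that were higher at day 7 with anti-miR-106b and for 72 with scrambled, against 39.5% and 34.9% of all tested genes, while 41.7% and 37.5% of all tested genes were lower at day 7 without overlap. The same 72 members rose in both arms.

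**Figure D3:**
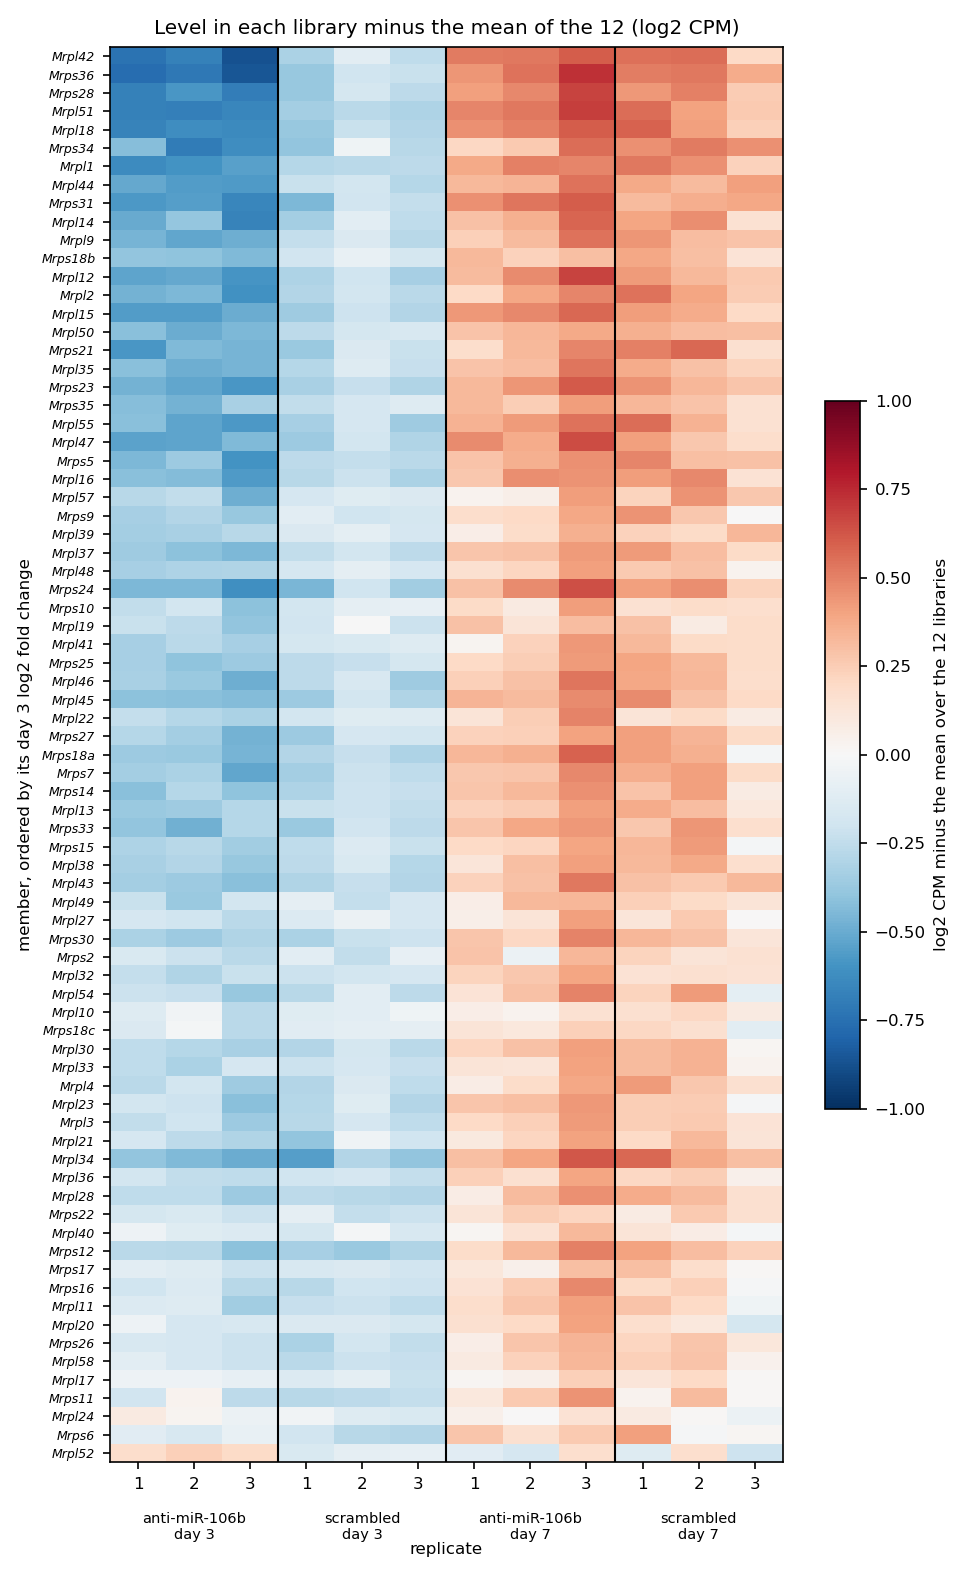
Level of each of the 77 members (rows, ordered by the day 3 fold change) in each of the 12 libraries (columns, 3 per group), as log2 CPM minus the member's mean over the 12 libraries. Nearly all rows turn from blue at day 3 to red at day 7 in both arms. The upper rows are darkest in the anti-miR-106b day 3 libraries, and Mrpl52 at the bottom runs the other way in the anti-miR-106b arm.

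The rise over time depends on scaling too. Total-count scaling moved the median of all tested genes to -0.65 in the anti-miR-106b arm and to -0.41 in the scrambled arm. Under it, 25 members were higher and 14 lower at day 7 in the anti-miR-106b arm, and 25 higher and 7 lower in the scrambled arm. The members' median was then 0.01 and 0.09. A factor per library shifts members and all genes alike, so it leaves the gap between their medians, 0.65 and 0.50, as it was. Quantile normalization, which can move it, gave a gap of 0.47 with anti-miR-106b and 0.33 with scrambled. As a share of all reads the members took 0.404% ± 0.024 in anti-miR-106b day 7 libraries against 0.375% ± 0.001 in anti-miR-106b day 3 libraries, and 0.393% ± 0.014 in scrambled day 7 libraries against 0.365% ± 0.003 in scrambled day 3 libraries (SD, n = 3 each). All libraries of day 7 were above those of day 3 in each arm, and an exact permutation test of 3 against 3 cannot go below p = 0.1.

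Mrps36 rose most in the anti-miR-106b arm, with 5.00, 5.11 and 5.30 log2 CPM at day 7 and 3.80, 3.85 and 3.71 at day 3, a log2 fold change of 1.35 ± 0.09 (limma, adjusted p = 5.26e-09). In the scrambled arm it had 5.08, 5.09 and 4.94 at day 7 and 4.19, 4.37 and 4.34 at day 3, a change of 0.74 ± 0.09 (limma, adjusted p = 5.06e-06). Mrps36 was thus separate between days in both arms, and its change with total-count scaling was 0.73 and 0.33. Mrpl42, Mrpl51 and Mrps28 followed in the anti-miR-106b arm with 1.31, 1.24 and 1.17, and had 0.66, 0.72 and 0.67 in the scrambled arm.

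In the scrambled arm the largest change was that of Mrpl34, a large subunit protein with a bacterial counterpart. It had 5.61, 5.42 and 5.34 log2 CPM in scrambled day 7 libraries and 4.49, 4.75 and 4.64 in scrambled day 3 libraries, a log2 fold change of 0.83 ± 0.10 (limma, adjusted p = 5.14e-06). Its change in the anti-miR-106b arm was nearly the same, 0.88 ± 0.10, and its day 3 fold change was -0.03 ± 0.10. Mrps34, which shares most of its exon bases with neighbours, had 4.31, 4.38 and 4.32 log2 CPM at day 7 and 3.46, 3.82 and 3.58 at day 3 in the scrambled arm, a change of 0.72 ± 0.11.

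Members of every ribosome region took part in the rise seen with the deposited scaling. All 3 members of the factor-binding stalk, 7 of 8 around the exit tunnel and all 5 along the messenger RNA path rose in both arms. Of 7 in the central protuberance 7 rose with anti-miR-106b and 6 with scrambled. Of all tested genes 37.9% were higher with anti-miR-106b and 32.9% with scrambled. With total-count scaling 25 of 77 members were higher and 14 lower with anti-miR-106b, and 25 higher and 7 lower with scrambled. Mrpl10 of the stalk had changes of 0.23 with anti-miR-106b and 0.24 with scrambled, which with total-count scaling turned to -0.39 and -0.17. The median change was 0.60 for large subunit genes and 0.66 for small subunit genes in the anti-miR-106b arm, and 0.49 and 0.48 in the scrambled arm. The summed CPM of the large subunit genes was 2.59 ± 0.04 times that of the small subunit genes in anti-miR-106b day 3, 2.64 ± 0.05 in scrambled day 3, 2.67 ± 0.01 in anti-miR-106b day 7 and 2.62 ± 0.04 in scrambled day 7 libraries (SD, n = 3 each).

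The members that did not pass in the scrambled arm were Mrps18c, Mrpl40, Mrpl20, Mrpl24 and Mrpl52 (Mrpl40 and Mrpl20 are named after their values were seen). Mrpl24, a protein of the exit tunnel, passed in no comparison. It had 5.18, 5.13 and 5.27 log2 CPM in anti-miR-106b day 7 libraries and 5.22, 5.15 and 5.07 in anti-miR-106b day 3 libraries. With scrambled it had 5.21, 5.14 and 5.07 at day 7 and 5.09, 4.99 and 4.97 at day 3, and the days overlapped in both arms. Its log2 fold changes of 0.04 ± 0.07 and 0.12 ± 0.07 lay under those of the other 7 exit tunnel members in both arms and were -0.58 and -0.29 with total-count scaling, and 26.3% of its exon bases are shared with another gene.

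Mrpl52 was the member that fell in the anti-miR-106b arm, with 5.27, 5.22 and 5.56 log2 CPM at day 7 and 5.57, 5.62 and 5.58 at day 3. Library 3 of day 7 lay just under the day 3 libraries, and the log2 fold change was -0.24 ± 0.10 (limma, adjusted p = 0.0403). The call was lost without any 1 of 7 of the 12 libraries. In the scrambled arm Mrpl52 had 5.26, 5.55 and 5.18 at day 7 and 5.24, 5.30 and 5.31 at day 3, which overlapped, with a change of 0.05 ± 0.10 that was -0.36 with total-count scaling.

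Both arms ordered the members alike. The changes over time in both arms, which share no library, had a Pearson r of 0.88 and a Spearman rho of 0.90 across the 77 members, against 0.95 for each over all tested genes, and 76 members had the same sign. The change was more positive in the anti-miR-106b arm than in the scrambled arm for 68 of 77 members with the deposited scaling. The count was 26 with total-count scaling and 40 with total-count scaling without mitochondrially encoded reads. This difference between the arms equals the change of the effect between the days given above, so it is not a further result.

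The rest of the mitochondrial translation system was described by lists chosen for their function. At day 3, 8 of 14 tested genes for translation factors and activators fell with anti-miR-106b and 0 rose (limma; 9 lower and 0 higher at an unadjusted p below 0.05), and the list's median was -0.28 on the log2 scale, against 19.4% and 16.3% of all genes. The elongation factor gene Gfm1 had 5.96, 5.93 and 5.97 log2 CPM in anti-miR-106b day 3 libraries and 6.44, 6.57 and 6.52 in scrambled day 3 libraries, with separate groups and a fold change of -0.55 ± 0.08. Taco1, an activator of cytochrome oxidase synthesis, Lrpprc, which protects mitochondrial messenger RNA, and the recycling factor gene Gfm2 had -0.60, -0.47 and -0.38. Of 23 genes for ribosome assembly and rRNA modification 7 fell and 0 rose (limma; 11 and 0 at an unadjusted p below 0.05), with a median of -0.20. Among them were the pseudouridine synthase gene Trub2, the rRNA methyltransferase gene Nsun4 and the rRNA nuclease gene Ybey, with -0.33, -0.29 and -0.49.

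Beside the day 3 counts of the next lists stand 19.4% of all tested genes lower and 16.3% higher, and some counts lie near these shares. Of 20 genes for mitochondrial aminoacyl-tRNA synthesis 6 fell and 1 rose, with a median of -0.15. Gatb and Qrsl1, 2 subunits of the amidotransferase that makes glutaminyl-tRNA, fell by 0.41 and 0.50, and the synthetase genes Iars2 and Aars2 by 0.31 and 0.30, on the log2 scale. Of 13 genes for transcription and upkeep of mitochondrial DNA 4 fell, with -0.53 for Tfb2m and -0.27 for Tfam, which start and package it. Of 5 ribosome subunit genes with other names 1 fell, Ptcd3, with -0.37 ± 0.06, while Dap3, the gene for another small subunit protein, had -0.13 ± 0.06 and did not pass. Among 9 regulators of mitochondrial biogenesis Ppargc1a and Esrra fell with -0.70 and -0.49 and Pprc1 rose with 0.31. Ppargc1a, the gene for the coactivator PGC-1alpha, had 3.49, 3.50 and 3.50 log2 CPM with anti-miR-106b and 4.09, 4.23 and 4.26 with scrambled.

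The RNA of the mitochondrial ribosome and the genes it translates had fold changes further from 0 than the members' median. The mitochondrial rRNA genes mt-Rnr1 and mt-Rnr2 had fold changes of -0.51 ± 0.14 and -0.72 ± 0.13 at day 3 (limma, adjusted p = 0.012 and 0.000871). Of 9 tested protein genes of mitochondrial DNA 8 fell, with a median of -0.89, beside 19.4% of all tested genes lower and 16.3% higher. Of 80 nuclear genes for subunits of the respiratory chain and ATP synthase 74 fell and 3 rose, with a median of -0.48. Genes for proteins of the cytosolic ribosome went the other way, with 78 of 83 higher, 1 lower and a median of 0.47. With total-count scaling the medians at day 3 kept their sign for these lists (-0.70 for the protein genes of mitochondrial DNA, -0.29 for the nuclear oxidative phosphorylation genes, 0.66 for the cytosolic ribosome) and for the translation factors (-0.09, 4 lower and 0 higher). They moved to -0.01 for the assembly genes (0 lower, 4 higher), 0.04 for the aminoacyl-tRNA genes (2 lower, 3 higher) and 0.05 for the genes of mitochondrial DNA upkeep (1 lower, 3 higher). For the subunit genes with other names the median was then 0.13 and for the regulators 0.10. At day 7 the number of genes that passed in these lists was 0, apart from 1 cytosolic ribosomal protein gene that was lower (limma).

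**Figure D4:**
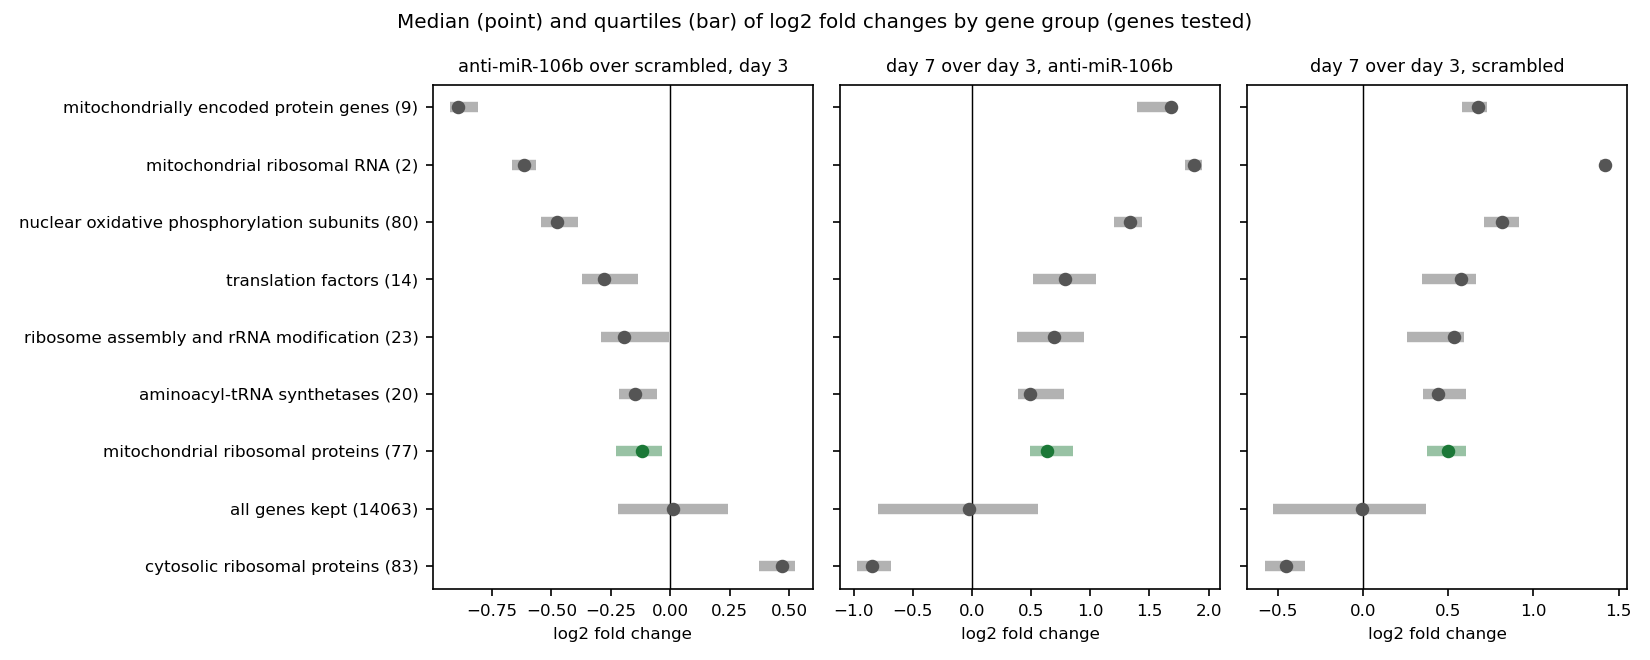
Median (point) and quartiles (bar) of the log2 fold changes of 9 groups of genes, with the number of genes tested in brackets, for anti-miR-106b over scrambled at day 3 and for day 7 over day 3 in each arm. The 77 members (green) lie between all tested genes and the oxidative phosphorylation subunits in each panel, with medians of -0.12, 0.63 and 0.50, while the cytosolic ribosomal proteins lie on the opposite side.

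Over time the same lists were compared within each arm. Day 7 against day 3 gave medians of 1.34 with anti-miR-106b and 0.81 with scrambled for the nuclear oxidative phosphorylation genes, 1.69 and 0.67 for the protein genes of mitochondrial DNA, and -0.85 and -0.45 for the cytosolic ribosomal proteins, beside 0.63 and 0.50 for the members. The translation factors had 0.79 and 0.57, the assembly genes 0.69 and 0.53, and the aminoacyl-tRNA genes 0.49 and 0.44. With total-count scaling the median of the aminoacyl-tRNA genes turned to -0.13 with anti-miR-106b, and with quantile normalization that of the protein genes of mitochondrial DNA turned to -0.049 with scrambled.

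Ratios of summed CPM within a library are free of the library scaling. Per CPM of nuclear oxidative phosphorylation genes the members had 16.3% ± 0.11 in anti-miR-106b day 3, 13.0% ± 0.23 in scrambled day 3, 10.7% ± 0.27 in anti-miR-106b day 7 and 10.4% ± 0.24 in scrambled day 7 libraries (SD, n = 3 each). The libraries of both day 3 groups did not overlap in this ratio and lay above all day 7 libraries, whose groups overlapped. Per CPM of cytosolic ribosomal protein genes the members had 8.68% ± 0.10 in anti-miR-106b day 3, 13.3% ± 0.78 in scrambled day 3, 24.98% ± 1.04 in anti-miR-106b day 7 and 25.2% ± 1.51 in scrambled day 7 libraries. Here too the day 3 groups did not overlap, and both lay below all day 7 libraries. Each CPM of members stood beside 12.5 ± 0.05 CPM of mitochondrially encoded protein genes in anti-miR-106b day 3, 20.5 ± 0.38 in scrambled day 3, 24.7 ± 2.40 in anti-miR-106b day 7 and 23.5 ± 2.35 in scrambled day 7 libraries.

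**Figure D5:**
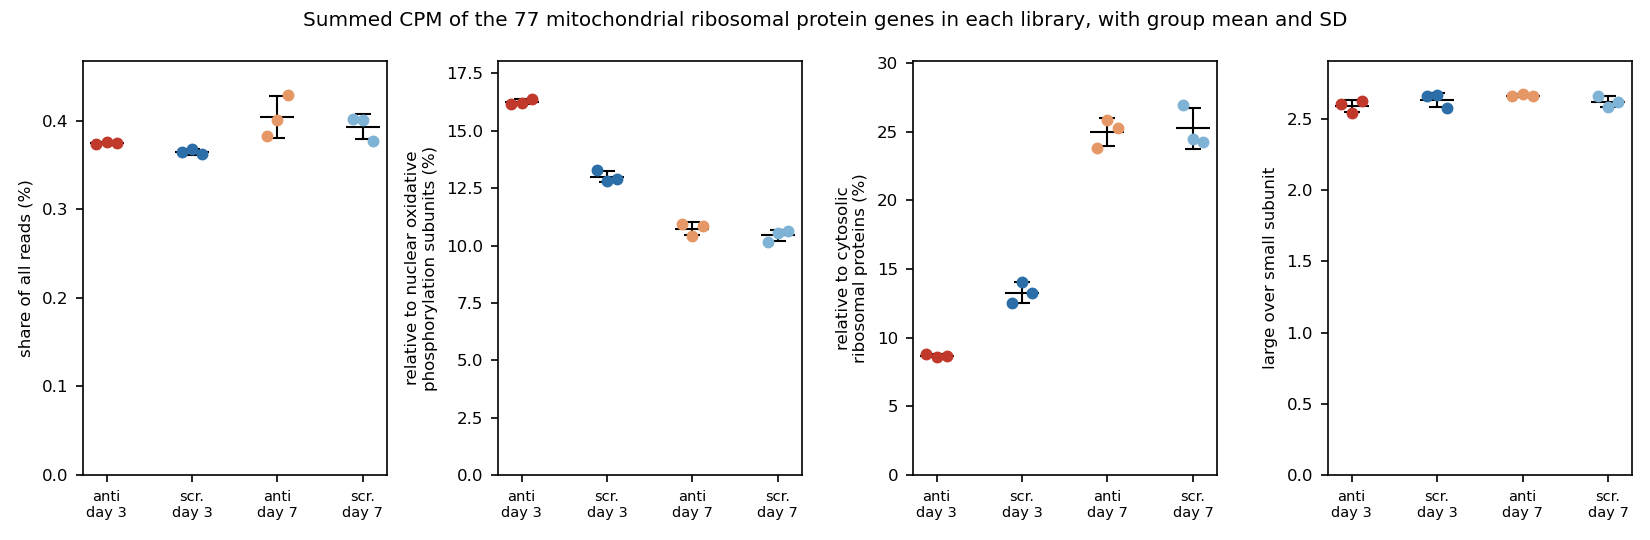
Summed CPM of the 77 members in each library (points), as a share of all reads and relative to other gene groups, and of large over small subunit genes, with group mean and SD (bars), for anti-miR-106b (anti) and scrambled (scr.) at day 3 and day 7. Relative to oxidative phosphorylation genes anti-miR-106b day 3 libraries are highest (16.3%), relative to cytosolic ribosomal proteins they are lowest (8.68%), and the ratio of large to small subunit genes lies between 2.59 and 2.67 in the 4 group means.

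Markers of several cell types also differed between the groups. Beside the counts of markers that passed stand 19.4% of all tested genes lower and 16.3% higher at day 3. Over time the shares were 37.9% higher and 40.8% lower with anti-miR-106b, and 32.9% and 35.3% with scrambled. All 8 markers of mature muscle fibres fell at day 3, and their summed CPM ranged over 65936 to 72120 in anti-miR-106b day 3 libraries and 101491 to 120575 in scrambled day 3 libraries. With quantile normalization 1 of the 8 was lower at day 3 and their median log2 fold change was 0.042. Over time all 8 rose in both arms, to sums of 179354 to 201473 with anti-miR-106b and 191012 to 210394 with scrambled at day 7. Of 6 macrophage markers 4 rose at day 3, with sums of 1229.7 to 1410.1 CPM in anti-miR-106b day 3 libraries against 840.3 to 871 CPM in scrambled day 3 libraries, and all 6 fell by day 7 in both arms, to 128 to 180.2 CPM with anti-miR-106b and 118 to 178 CPM with scrambled. Of 4 markers of regenerating fibres 1 rose at day 3, with sums of 2446 to 2679 CPM with anti-miR-106b and 1385 to 1786 CPM with scrambled. No marker of these lists was at 0 in any library. The regenerating fibre markers had a median log2 fold change of -4.08 over time with anti-miR-106b and -3.76 with scrambled. The other lists, of 2 to 4 tested markers, had day 3 medians of 1.21 (neutrophil), 0.70 (erythrocyte), 0.53 (T and NK cell) and 0.20 (endothelial). Further medians were -0.0001 (fibroblast), -0.30 (Schwann cell) and -0.63 (adipocyte). At day 7 the medians were -0.45, -0.01, -0.30, -0.40, -0.12, -0.48 and 0.21 in the same order. At an unadjusted p below 0.05 (limma), 0 of 2 neutrophil and 0 of 2 T and NK cell markers differed at day 3. By that measure 1 of 3 erythrocyte, 2 of 4 endothelial and 1 of 4 fibroblast markers were higher. Lower were 1 of 2 Schwann cell and 1 of 3 adipocyte markers. Mitochondrially encoded reads made up 4.81% of reads in anti-miR-106b day 3, 7.64% in scrambled day 3, 10.2% in anti-miR-106b day 7 and 9.59% in scrambled day 7 libraries. The part of these differences in the members' changes was not tested, and in RNA of whole muscle fewer cells of a type and less RNA per cell cannot be told apart.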

How the data were processed

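Gene expression was measured by RNA sequencing in 12 tibialis anterior muscles, grouped by their labels. The authors deposited log2 CPM values, the base-2 logarithm of reads divided by a scaled library size, for 28116 symbols. The submitters' processing notes name, without roles or order, limma 3.34.9, edgeR 3.20.9, featureCounts, STAR, Trim Galore 0.4.3.1, FastQC 0.72 and the build mm10, while annotation and strand setting are not given in the sources used here. Values of each library step by whole reads (100% within 0.001 reads, with 0.25 reads added on average), so reads could be recovered. Libraries held 28857739 to 42825246 reads, and 1 CPM equals 28.1 to 46.9 reads.

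The log2 CPM values as deposited went into limma 3.58.1 (R 4.3.3) with a mean for each of the 4 groups and a variance prior that follows level (8 residual and 5.59 prior degrees of freedom). Tests covered the 14063 genes with at least 1 CPM in 3 or more libraries and were two-sided, adjusted by Benjamini-Hochberg within each of 5 comparisons, with 0.05 as the threshold. Count models were not run because the values are on a log2 scale, and voom weights on the recovered reads served as an alternative. Other alternatives were total-count scaling with or without mitochondrially encoded reads, quantile normalization, other filters, 1 or 5 CPM added before the logarithm, a prior without trend, library weights, a fit of the compared groups alone, a replicate block and each library left out. Replicates of each group differed by more than sampling noise. The labels do not say that replicate numbers pair animals, so the main fit had no block. The fit was tested on simulated data.

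Members follow the symbol rule. The named ones were a set with known roles, the 4 called members farthest in either direction per comparison, the extremes per length and the members next to the threshold, and for other lists the 4 genes with the smallest p at day 3. Members and lists were chosen with earlier results of these data known. GENCODE M21 (GRCm38, the assembly of mm10) gave positions and exon lengths, and RefSeq (GRCm38.p6) the promoter windows. Figures were drawn with Python 3.11.15, numpy 2.4.6, pandas 2.3.3 and matplotlib 3.10.9.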

Additional observations from a re-analysis of the deposited data

Results flagged for a closer look

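For 14 of the 77 members the effect of anti-miR-106b differed between the days (limma, adjusted p below 0.05). The test was of the difference itself, the interaction of inhibitor and day. Of all tested genes 13.2% passed it as higher and 9.07% as lower. The value given for each is the log2 fold change at day 7 minus the one at day 3, and every value is positive. It was 0.65 for Mrpl42, 0.61 for Mrps36, 0.52 for Mrpl51, 0.5 for Mrps28 and 0.48 for Mrps31. It was 0.46 for Mrpl18, 0.43 for Mrpl47, 0.42 for Mrpl15, 0.42 for Mrpl12 and 0.37 for Mrpl1. It was 0.35 for Mrps23, 0.35 for Mrpl44, 0.32 for Mrpl35 and 0.27 for Mrpl50. Mrpl47 was the 1 of the 14 that had not passed as lower at day 3. With total-count scaling 4 of the 14 passed, and 5 members passed in the opposite direction.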

How the results depend on the processing

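The scaling of the libraries and library weights moved several of these results, and the cause was not tested. With total-count scaling, 15 members were higher and 4 lower at day 3 with anti-miR-106b, and with mitochondrially encoded reads also left out 7 and 6. The members' median log2 fold change at day 3 was then 0.068 and 0.025. For the change of the effect between the days these scalings gave 4 members higher and 5 lower, and 7 and 2, with a median of -0.037 under total-count scaling. From day 3 to day 7 they gave 25 higher and 14 lower, and 34 and 8, in the anti-miR-106b arm, and 25 and 7, and 31 and 5, in the scrambled arm.

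Members above 0 went from 14 to 52 of 77 at day 3 with total-count scaling. For the change of the effect they went from 68 to 26. Listed here are only named members whose sign turned and that passed the test with the deposited or the alternative scaling. They were Mrpl3 at day 3 (0.15) and the following over time. Values are given with total-count scaling and, where they also turned round in this way, without mitochondrially encoded reads. In the anti-miR-106b arm they were Mrpl10 (-0.39, -0.31), Mrpl11 (-0.13, -0.049), Mrpl22 (-0.055), Mrpl23 (-0.018), Mrpl24 (-0.58, -0.50), Mrpl3 (-0.067), Mrpl38 (-0.018), Mrpl41 (-0.083), Mrpl58 (-0.25, -0.16), Mrps16 (-0.13, -0.043), Mrps18c (-0.32, -0.24), Mrps2 (-0.22, -0.14), Mrps22 (-0.25, -0.16) and Mrps6 (-0.28, -0.20). In the scrambled arm they were Mrpl10 (-0.17, -0.13), Mrpl11 (-0.030), Mrpl22 (-0.13, -0.10), Mrpl23 (-0.010), Mrpl24 (-0.29, -0.26), Mrpl41 (-0.022), Mrpl52 (-0.36, -0.33), Mrps16 (-0.039, -0.0085), Mrps18c (-0.22, -0.19), Mrps2 (-0.098, -0.067), Mrps22 (-0.058, -0.027) and Mrps6 (-0.012).

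Library weights gave 4 members higher and 38 lower at day 3, and 1 lower for the change of the effect. A fit of the compared groups alone gave 1 higher and 30 lower at day 3, and quantile normalization 1 and 29. In the anti-miR-106b arm no filter and a prior without trend each gave 0 lower over time. Leaving out 1 library gave 0 to 1 higher and 9 to 25 lower at day 3, 7 to 21 higher and 0 to 1 lower for the change of the effect, 74 to 75 higher and 0 to 1 lower over time with anti-miR-106b, and 70 to 75 higher with scrambled.

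Same-numbered libraries had correlations of -0.18 to 0.14 in their deviations. Libraries of different numbers were not compared in this way, so whether the numbers pair animals was not settled. With the replicate block, 1 member was higher and 19 lower at day 3, 0 passed at day 7, 12 were higher for the change of the effect, 74 were higher and 1 lower over time with anti-miR-106b, and 72 were higher with scrambled. With 3 animals a group, exact permutation of 3 against 3 libraries cannot go below 0.1, so single values rest on the fit across genes.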
